A study of Rattus norvegicus with 15 samples.

Results

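*Npas4*, *Arc*, *Nr4a1*, *Nr4a2*, *Nr4a3*, *Homer1*, *Ptgs2*, *Sik1*, *Srf* and *Gadd45b* are genes that neurons transcribe after activity. Their transcript levels were examined in the inferior colliculus (IC), the midbrain auditory nucleus in which audiogenic seizures start. The 10 genes were taken by symbol from the 14506 genes that the array named, and each was read by 1 probe set. The series holds 15 arrays, 1 per animal, from male rats of 12 weeks. The Wistar audiogenic rat (WAR), an inbred line selected for seizures in response to loud sound, came from the School of Medicine of Ribeirão Preto. The control Wistar albino rats came from Charles River Laboratories, so strain and provider cannot be told apart. WAR S (n = 5) and Wistar S (n = 2) were labelled as exposed to auditory stimulation, with a harvest time given for both as 60 min after the seizures. The study describes its stimulated Wistar rats as free of seizures and its stimulated WAR as convulsing. In the stimulated comparison strain and seizure therefore cannot be told apart. WAR N (n = 4) and Wistar N (n = 4) were labelled as exposed to nothing, although the general notes of the series describe all rats as stimulated. Groups here follow the array's own label. The 2 Wistar S arrays limit what the stimulated comparison can resolve.

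Calcium that enters an active neuron switches on kinases, and these act on transcription factors already bound to DNA, mainly CREB at cAMP response elements and SRF at CArG boxes. The first genes to respond need no new protein and are called immediate-early genes. Among the genes examined here, *Npas4*, the 3 *Nr4a* nuclear receptors and *Srf* encode transcription factors. *Arc*, *Homer1* and *Ptgs2* encode proteins that act at synapses or in prostaglandin synthesis, and *Sik1* and *Gadd45b* encode a kinase that restrains CREB signalling and a stress-response protein linked to DNA demethylation. In the auditory midbrain such genes are used as a readout of recent sound-driven firing.

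RefSeq promoters of the GRCr8 assembly, the 250 bases before the transcription start, were matched for 8 of the 10 genes, all but *Arc* and *Nr4a3*. The 4 shown are those that hold the most of the searched elements (*Nr4a1*, *Sik1* and *Srf*) and one that holds none (*Npas4*). Each is printed 5′ to 3′ on the strand of the gene, at chr7:134259888-134260137, plus strand for *Nr4a1*, chr20:9958647-9958896, minus strand for *Sik1*, chr9:21923826-21924075, plus strand for *Srf* and chr1:211716103-211716352, minus strand for *Npas4*. Capitals mark TGACG on either strand (CGTCA is the same element read from the other strand) and, in *Srf*, CArG boxes.
Nr4a1: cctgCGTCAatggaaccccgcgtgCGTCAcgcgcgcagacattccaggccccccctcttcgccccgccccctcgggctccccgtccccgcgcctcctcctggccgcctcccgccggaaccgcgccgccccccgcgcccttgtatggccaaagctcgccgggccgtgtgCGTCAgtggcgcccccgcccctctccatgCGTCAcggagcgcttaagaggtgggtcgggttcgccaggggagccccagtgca
Sik1: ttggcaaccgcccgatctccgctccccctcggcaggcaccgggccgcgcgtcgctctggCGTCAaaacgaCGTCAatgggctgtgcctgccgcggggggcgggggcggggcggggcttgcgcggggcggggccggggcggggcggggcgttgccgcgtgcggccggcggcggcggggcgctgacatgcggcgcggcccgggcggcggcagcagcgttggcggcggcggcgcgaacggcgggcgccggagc
Srf: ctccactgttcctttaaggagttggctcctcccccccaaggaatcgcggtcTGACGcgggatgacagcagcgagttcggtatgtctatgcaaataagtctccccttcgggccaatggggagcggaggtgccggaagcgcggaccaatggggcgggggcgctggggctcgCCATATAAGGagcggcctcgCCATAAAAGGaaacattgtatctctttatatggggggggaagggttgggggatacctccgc
Npas4: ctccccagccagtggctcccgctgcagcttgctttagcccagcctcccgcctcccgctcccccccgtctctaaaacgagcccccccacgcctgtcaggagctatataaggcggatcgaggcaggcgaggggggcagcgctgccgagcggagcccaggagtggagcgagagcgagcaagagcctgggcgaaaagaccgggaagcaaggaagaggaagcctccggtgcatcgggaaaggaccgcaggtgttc

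TGACG, the short form of the cAMP response element, was found 4 times in *Nr4a1*, 2 times in *Sik1* and 1 time each in *Srf* and *Nr4a2*, so in 4 of 8 promoters. It occurred in 18.2% of 33469 rat promoters of the same length. The full element TGACGTCA, which contains TGACG, was in 0 of the 8 (1.59% of all promoters), and the AP-1 element TGANTCA was in 0 of the 8 (6.34%). The CArG box, searched on both strands, stood 2 times in the *Srf* promoter, from 81 to 72 and from 61 to 52 bases before the start, and was in 1.50% of all promoters. *Srf* therefore carries in its own promoter the letters that its protein binds. A match describes the sequence and is not evidence of binding in these animals.

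Some properties of the arrays touch the results. The stimulated and the naive arrays appeared to have been normalized separately. Any pair of stimulated arrays held 2675 to 3286 identical values, any naive pair 2 to 13, and any mixed pair 0. Levels were therefore compared between strains only within stimulated or within naive arrays. Identical values also enter the results. *Homer1* held the same value, 8.90, in WAR S replicates 3 and 5 and Wistar S replicate 2. *Klf10*, another activity-induced gene, held 7.91 in WAR S replicates 1, 2 and 5. The part of identical values in the spread of the stimulated arrays, on which the calls depend, was not tested. The running numbers in the labels fall into 2 sets, called label set 1 and label set 2 here, that no source names as batches. Label set 1 holds both Wistar S arrays, WAR S replicates 1, 2 and 5, WAR N replicates 1 and 2 and Wistar N replicate 1. Label set 2 holds WAR S replicates 3 and 4, WAR N replicates 3 and 4 and Wistar N replicates 2, 3 and 4, and no Wistar S array. Wistar N replicate 1 stood apart from its group. Its root-mean-square distance over all genes, in log2 units, was 0.525 to 0.586 to the other Wistar N arrays and 0.296 to 0.378 to the WAR N arrays. Neuron markers were present in every group, with a mean log2 level of 10.3 to 10.9 over 18 measured markers. In bulk tissue, fewer cells of a type and less RNA per cell cannot be told apart.

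**Figure D1:**
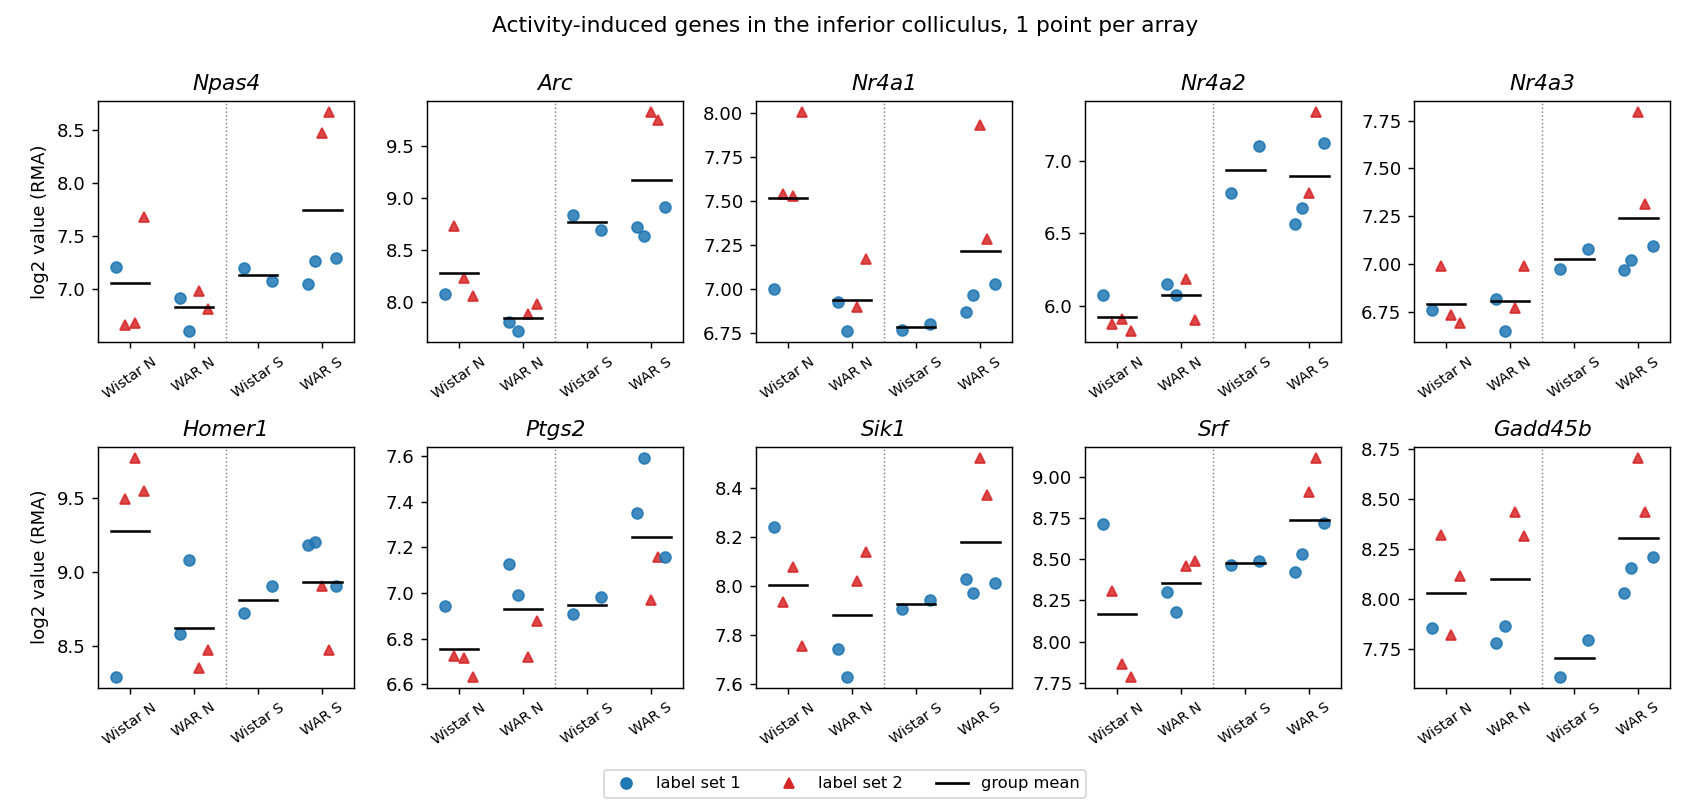
Log2 expression of the 10 genes, 1 panel per gene and 1 point per array, with a line at each group mean (n = 4 Wistar N, 4 WAR N, 2 Wistar S, 5 WAR S). Circles are arrays of label set 1 and triangles arrays of label set 2. A dotted line parts the naive from the stimulated arrays, whose levels are not compared. The 2 triangles of WAR S lie above the other 5 stimulated arrays for 7 of the genes, for example at 8.47 and 8.67 against 7.05 to 7.29 for *Npas4*.

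The first comparison asked whether these genes were transcribed at different levels in the IC of WAR and Wistar rats after sound. None of the 10 passed an adjusted p of 0.05 in the limma fit (0 of 10, where 60 of 14506 genes, 0.414%, were called). At an unadjusted p of 0.05, 1 gene, *Gadd45b*, passed, against 6.85% of all genes. The estimates were higher in WAR S for 9 of 10 genes, with a median log2 fold change of 0.28, where 55.5% of all genes had a positive estimate and the median was 0.01. For *Nr4a1*, *Sik1* and *Gadd45b* all 5 WAR S arrays lay above both Wistar S arrays, a pattern seen in 12.4% of all genes.

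*Gadd45b*, whose protein is induced by stress and by neuronal activity, had the best-resolved difference. Its log2 values were 8.03, 8.16, 8.71, 8.44 and 8.21 in WAR S replicates 1 to 5 and 7.61 and 7.80 in Wistar S. The groups did not overlap, and the lowest WAR S array stood 0.23 above the higher Wistar S array. The log2 fold change was 0.60 ± 0.20 (SE, limma), with a 95% confidence interval of 0.16 to 1.04 and an adjusted p of 0.385. The exact two-sided permutation p was 0.0952, where the smallest that 5 arrays against 2 allow is 0.0476. Within label set 1 alone, 3 WAR S arrays against 2 Wistar S, the difference was 0.43 and passed (adjusted p = 0.0492 in limma, with 3.0% of all genes called). The same 5 arrays gave an adjusted p of 0.940 when the spread was taken from all 13 arrays left without WAR S replicates 3 and 4, where 0.165% of all genes were called. With arrays weighted by their reliability it was 0.53, with an adjusted p of 0.0203 in limma and 9.88% of all genes called.

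*Npas4*, a neuron-restricted transcription factor induced by calcium entry, had a fold change of the same size and a much wider spread. Its log2 values were 7.05, 7.27, 8.47, 8.67 and 7.29 in WAR S and 7.20 and 7.08 in Wistar S. Replicates 3 and 4 were high, and the other 3 WAR S arrays lay within 0.16 of the Wistar S mean. The estimated difference was 0.61 ± 0.40 on the log2 scale (SE, limma), with a 95% confidence interval of −0.23 to 1.46 and an adjusted p of 1. Without the 2 arrays of label set 2, a setting chosen after seeing the data, it was 0.067.

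*Arc*, which encodes a protein that removes AMPA receptors from synapses, followed the same arrays. Its log2 values were 8.73, 8.64, 9.83, 9.75 and 8.91 in WAR S and 8.84 and 8.69 in Wistar S. Again replicates 3 and 4 were high, and the remaining 3 overlapped the Wistar S arrays. The log2 fold change of 0.41 ± 0.29 (SE, limma, adjusted p = 1) turned to −0.0074 within label set 1.

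Among the nuclear receptors, *Nr4a1* (Nur77) read 6.87, 6.97, 7.93, 7.28 and 7.03 in WAR S and 6.77 and 6.80 in Wistar S. All WAR S arrays were above both Wistar S arrays, by 0.070 at the closest, and replicate 3 was the highest. Its estimate was 0.43 ± 0.26 (SE, limma, adjusted p = 1), and 0.17 within label set 1. *Nr4a3* (NOR-1) read 6.97, 7.02, 7.79, 7.31 and 7.09 in WAR S and 6.97 and 7.08 in Wistar S, with an estimate of 0.21 ± 0.18 that was 0.0013 within label set 1. *Nr4a2* (Nurr1), the receptor needed by midbrain dopamine neurons, read 6.57, 6.67, 6.78, 7.33 and 7.12 in WAR S and 6.78 and 7.10 in Wistar S. It was the gene of the 10 with a negative estimate, −0.04 ± 0.17, with a 95% interval of −0.41 to 0.33, and its groups overlapped. *Srf*, which encodes the CArG-box factor, read 8.43, 8.53, 8.91, 9.12 and 8.72 in WAR S and 8.47 and 8.49 in Wistar S. It followed *Arc* in having replicates 3 and 4 on top, with an estimate of 0.26 ± 0.22, or 0.082 within label set 1.

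*Ptgs2*, which encodes the inducible cyclooxygenase COX-2, behaved differently within WAR S. Its log2 values were 7.35, 7.59, 6.97, 7.16 and 7.16 in WAR S and 6.91 and 6.98 in Wistar S. Here replicates 1 and 2, of label set 1, were the high ones, while replicate 5 of label set 1 equalled replicate 4 of label set 2. The estimate was 0.30 ± 0.15 (SE, limma, adjusted p = 0.768), and 0.42 within label set 1. It passed with array weights, at 0.35 and an adjusted p of 0.0448 in limma. *Homer1*, whose short form uncouples glutamate receptors from their scaffold, read 9.18, 9.20, 8.90, 8.47 and 8.90 in WAR S and 8.72 and 8.90 in Wistar S. The strains overlapped (0.12 ± 0.32), and replicate 4 of WAR S was the lowest of the 7. Since 1 probe set reads the gene, the short activity-induced form and the long forms could not be separated. *Sik1* read 8.03, 7.97, 8.52, 8.37 and 8.01 in WAR S and 7.91 and 7.94 in Wistar S. The groups did not overlap, but by 0.028 at the closest arrays, and the estimate was 0.26 ± 0.17, or 0.078 within label set 1.

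**Figure D2:**
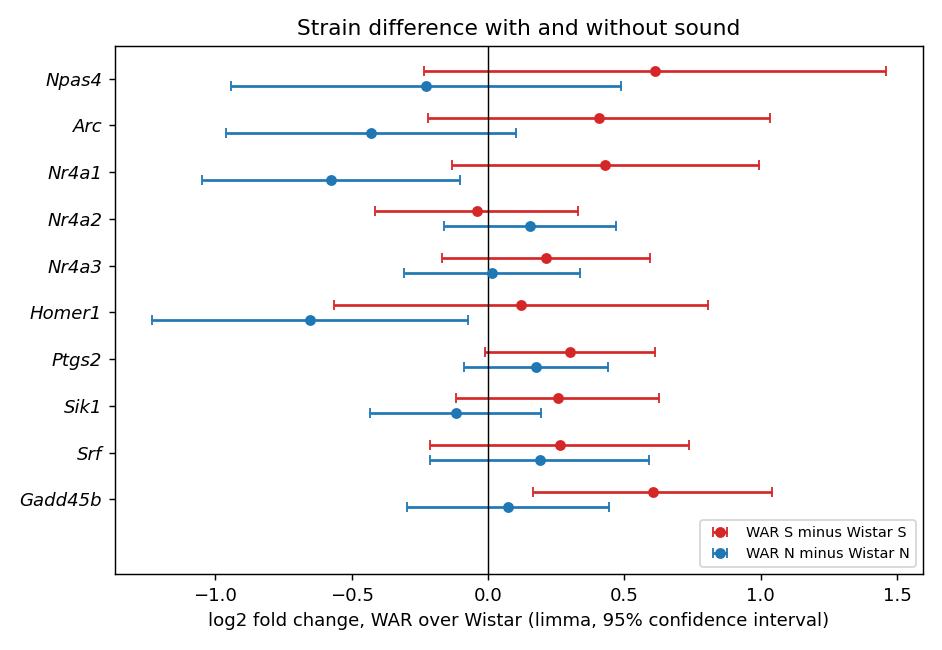
Log2 fold change of WAR over Wistar for the 10 genes with 95% confidence intervals from limma, in stimulated arrays (red, 5 against 2) and naive arrays (blue, 4 against 4). The stimulated interval excludes 0 for *Gadd45b* alone and the naive interval for *Nr4a1* and *Homer1*, before adjustment over 14506 genes.

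The stimulated estimates of *Npas4*, *Arc*, *Nr4a1*, *Nr4a3*, *Sik1* and *Srf* rested largely on WAR S replicates 3 and 4. By contrast, within label set 1 *Gadd45b* kept 0.43 of 0.60. *Ptgs2* (0.42 against 0.30) and *Homer1* (0.28 against 0.12) had larger estimates there than over all arrays. Replicates 3 and 4 both lay above the other 5 stimulated arrays for 7 of 10 genes, a position that 7.0% of all genes took. The 7 were *Npas4*, *Arc*, *Nr4a1*, *Nr4a3*, *Sik1*, *Srf* and *Gadd45b*. Over the other WAR S arrays their means were higher by 1.36 for *Npas4*, 1.03 for *Arc*, 0.65 for *Nr4a1* and 0.53 for *Nr4a3*, and by 0.44 to 0.45 for *Srf*, *Sik1* and *Gadd45b*, all on the log2 scale. *Nr4a2* was higher by 0.27 with overlap. *Homer1* and *Ptgs2* went the other way, at −0.41 and −0.30. The difference between label sets was thus larger for *Npas4* and *Arc* than any strain difference of the 10 genes in the fit over all 15 arrays. Within label set 1, all 3 WAR S arrays were above both Wistar S arrays for *Nr4a1*, *Ptgs2*, *Sik1* and *Gadd45b* (4 of 10, against 19.6% of all genes). That activity-induced genes were high in these 2 arrays was known from earlier work on the same files, so the count is no independent support.

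**Figure D3:**
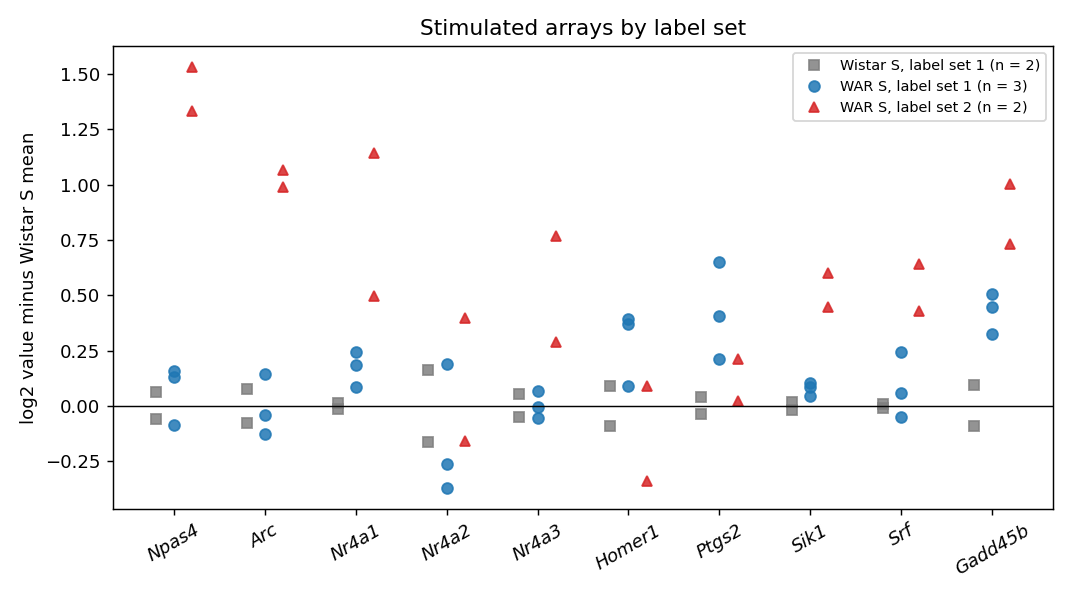
Log2 value of each stimulated array minus the mean of the 2 Wistar S arrays, for the 10 genes. Grey squares are Wistar S and blue circles WAR S of label set 1 (n = 3), and red triangles are WAR S of label set 2 (n = 2). The blue circles of *Arc* and *Nr4a3* scatter around 0, whereas those of *Gadd45b* and *Ptgs2* lie above the grey squares.

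Other transcripts moved with these 2 arrays. The mean log2 level of 19 measured endothelial markers was 8.36 and 8.06 in replicates 3 and 4 and 7.95 to 8.03 in the other WAR S arrays. For 9 ependymal and choroid plexus markers it was 6.46 and 6.51 against 6.21 to 6.36, and for 10 pericyte and smooth muscle markers 7.98 and 7.92 against 7.83 to 7.85. For 14 astrocyte markers it was 11.10 and 11.19 against 10.99 to 11.03. For 9 oligodendrocyte markers it was 11.35 and 11.32 against 11.24 to 11.29. The means of these lists were thus higher in both arrays, whereas the 15 microglia and macrophage markers were higher in replicate 4 alone (7.95 in replicate 3 and 8.24 in replicate 4, against 7.92 to 8.00). The 6 red blood cell markers, at 7.12 and 7.10 against 6.99 to 7.14, were not higher. Single markers were mixed. Replicates 3 and 4 together had the higher mean for 14 of 19 endothelial, 7 of 9 ependymal and choroid plexus and 9 of 10 pericyte markers. It was so for 8 of 14 astrocyte and 5 of 9 oligodendrocyte markers, against 6081 of 14506 genes. Neuron markers were lower in both, at 10.69 and 10.63 against 10.71 to 10.77. The part of these cell types, or of the label set, in the high values of the activity-induced genes was not tested. Label set 2 held no Wistar S array, so a strain difference within it could not be computed.

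The second comparison asked whether the strains differed without sound. None of the 10 genes passed the adjusted threshold among naive arrays, although 20.9% of all genes did. *Nr4a1* and *Homer1* had an unadjusted p under 0.05 (2 of 10, against 34.5% of all genes). The median log2 fold change was −0.05, with 5 of 10 estimates positive, where 54.5% of all genes were positive.

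*Nr4a1* had the smallest adjusted p of the 10 without sound. Its log2 values were 6.93, 6.76, 6.90 and 7.17 in WAR N and 6.999, 7.54, 7.53 and 8.00 in Wistar N. Wistar N replicate 1, the array that stood apart, was the lowest of its group and lay inside the WAR N range. The log2 fold change was −0.58 ± 0.22 (SE, limma, adjusted p = 0.0790). Without that array it was −0.75 and passed (adjusted p = 0.00935 in limma), in a fit that called 41.1% of all genes. Within label set 2 it was −0.65 (adjusted p = 0.0481, 30.1% of all genes called).

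*Homer1* showed the same dependence more strongly. It read 8.58, 9.08, 8.35 and 8.47 in WAR N and 8.29, 9.49, 9.77 and 9.54 in Wistar N. Wistar N replicate 1 was the lowest of all 8 naive arrays, and the other 3 Wistar N arrays were above every WAR N array. The log2 fold change was −0.65 ± 0.27 (SE, limma, adjusted p = 0.101). It became −0.98 without that array (adjusted p = 0.000554) and −1.19 within label set 2 (adjusted p = 0.000678). Within label set 1, where Wistar N replicate 1 is the sole Wistar N array, it was 0.54 in the opposite direction. With array weights, where Wistar N replicate 1 had the lowest weight (0.101), it was −0.97 (adjusted p = 0.00480, 32.2% of all genes called). Within label set 2, both WAR N arrays lay below all 3 Wistar N arrays for *Homer1*, *Nr4a1* and *Arc* (3 of 10, against 22.9% of all genes) and above them for *Srf* (1 of 10, against 31.5%).

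*Arc* was the gene of the 10 whose naive groups did not overlap. It read 7.80, 7.72, 7.88 and 7.98 in WAR N and 8.08, 8.73, 8.23 and 8.06 in Wistar N. All 4 WAR N arrays were lower, a position that 5.51% of all genes took. In the fit the difference was −0.43 ± 0.25 (SE, limma, adjusted p = 0.241), and it was −0.28 without Wistar N replicate 2, the highest array. The exact permutation p was 0.0286, the smallest that 4 against 4 allow, and is not adjusted over the genes.

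*Npas4* overlapped between the strains without sound, at 6.92, 6.60, 6.98 and 6.81 in WAR N and 7.21, 6.66, 6.68 and 7.68 in Wistar N. Wistar N replicate 4 was the high one, and its *Nr4a1* value of 8.00 was also the highest of the naive arrays. *Srf* read 8.30, 8.18, 8.46 and 8.49 in WAR N and 8.71, 8.31, 7.86 and 7.79 in Wistar N. Its estimate of 0.19 ± 0.19 was 0.49 within label set 2 (adjusted p = 0.0463 in limma) and −0.47 within label set 1. The latter is the difference of 2 WAR N arrays from Wistar N replicate 1 alone, given without a test. *Sik1* read 7.74, 7.63, 8.02 and 8.14 in WAR N and 8.24, 7.94, 8.08 and 7.76 in Wistar N, with an estimate of −0.12 ± 0.15. Against Wistar N replicate 1 alone, within label set 1, it was −0.56, and within label set 2 it was 0.16. The naive estimates of *Nr4a2* (0.15), *Nr4a3* (0.014), *Ptgs2* (0.17) and *Gadd45b* (0.072) lay between 0.014 and 0.17, with adjusted p from 0.340 to 0.956 in limma.

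Marker genes of other cells moved with the naive strain comparison too. The mean level of the endothelial markers was 7.81 to 8.32 in WAR N, 8.00 in Wistar N replicate 1 and 7.06 to 7.11 in the other 3 Wistar N arrays, and 10 of 19 of these markers were called higher in WAR N. Neuron markers ranged from 10.29 to 10.61 across the WAR N arrays, and across Wistar N from 10.49 to 10.86. Of these 5 of 18 were called lower in WAR N, where 9.38% of all genes were. They were the inhibitory neuron genes *Slc32a1* (−1.14 ± 0.20) and *Gad1* (−0.83 ± 0.15), the excitatory neuron gene *Slc17a6* (−0.62 ± 0.16), *Nefm* (−1.04 ± 0.31) and *Eno2* (−0.38 ± 0.11). All 5 were named after their values were seen, and the inhibitory neuron gene *Gad2* was not called (−0.05 ± 0.13). The mean level of 14 astrocyte markers did not overlap, with WAR N arrays at 10.75 to 10.95 below Wistar N arrays at 11.11 to 11.32. That of 15 microglia and macrophage markers did not overlap either, at 7.85 to 7.99 in WAR N against 7.42 to 7.60. Single markers were mixed. The naive estimate was positive for 4 of 14 astrocyte and 12 of 15 microglia and macrophage markers, against 54.5% of all genes. The part of any of these cells in the values of *Nr4a1*, *Homer1* and *Arc* was not tested.

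The third comparison tested whether the strain difference itself changed with sound, as the stimulated minus the naive difference. None of the 10 genes passed (0 of 10, where 0.103% of all genes were called). *Nr4a1* had the best-resolved estimate, 1.01 ± 0.34 on the log2 scale (SE, limma), with a 95% interval of 0.27 to 1.74 and an adjusted p of 0.196. *Arc* followed at 0.84 ± 0.38 (adjusted p = 0.324), and these 2 had an unadjusted p under 0.05 (2 of 10, against 15.0% of all genes). For both genes the strain estimate was negative without sound and positive after it. *Npas4* had a similar estimate, 0.84 ± 0.52, with an interval that includes 0. *Homer1* (0.78 ± 0.42) and *Gadd45b* (0.53 ± 0.27) were also positive, and *Nr4a2* was the gene with a negative estimate, −0.20 ± 0.23. Of 10 estimates 9 were positive, against 48.2% of all genes, with a median of 0.45. Without Wistar N replicate 1, *Nr4a1* (1.18, adjusted p = 0.0140) and *Homer1* (1.10, adjusted p = 0.00917) passed in limma, where 20.4% of all genes did. With array weights the same pair passed, at 1.01 (adjusted p = 0.0328) and 1.17 (adjusted p = 0.00599), where 23.1% did. Without the 2 arrays of label set 2 in WAR S, the estimates of *Arc* and *Npas4* were 0.42 and 0.29, that of *Nr4a1* was 0.75, and those of *Srf* and *Nr4a3* turned to −0.11 and −0.013.

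The effect of sound within a strain could not be tested, since the separate normalization and the stimulation cannot be told apart. As a description, each gene was ranked among all genes of its own array. *Nr4a2* stood at the 22.1 to 26.5 percentile in the 8 naive arrays and at 30.6 to 42.1 in the 7 stimulated arrays, without overlap. Among the 10 genes it was the one with all 7 stimulated arrays above all 8 naive arrays (1 of 10, against 4.14% of all genes). *Arc* ranked at 50.7 to 69.4 in naive and 64.0 to 85.5 in stimulated arrays, with 3 stimulated arrays above every naive one. *Npas4* ranked at 33.4 to 50.2 in naive and 37.7 to 66.5 in stimulated arrays. *Homer1* and *Nr4a1* had no stimulated array above all naive arrays.

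The genes were then compared with each other across arrays, as deviations from the mean of each group. This removes differences between the group means, while a relation that differs between groups still enters. Over 15 arrays and 45 pairs, 28 pairs had a positive r, and the median Pearson r was 0.30, from −0.88 to 0.86. Of the 45 pairs, 15 had a Benjamini-Hochberg adjusted permutation p of at most 0.05 by Pearson's r, and 15 by Spearman's rho. These permutations shuffled the deviations freely over all 15 arrays. The groups differ in spread and deviations within a group are not independent, so the permutation p of pairs are approximate and may be too small. *Ptgs2* and *Homer1* were set against much of the rest, with r of −0.73 between *Ptgs2* and *Gadd45b*. With the mean of each label set also removed, the median r fell to 0.014 and 23 pairs were positive. Within the 7 stimulated arrays the median r was 0.62, and within the 8 naive arrays −0.055. Much of the common movement thus lay between the label sets and in the stimulated arrays, although 17 pairs kept 1 sign in all 6 ways of taking the arrays.

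With group means removed, *Arc* and *Nr4a3* were the most alike pair. Their r was 0.86 and rho 0.88 (permutation p = 2e-05 and 7e-05, adjusted p = 0.000675 and 0.00315). Without the 2 arrays farthest from the median of *Arc*, WAR S replicates 3 and 4, r was 0.88, and with label set means removed it was 0.60. On the same values *Homer1* and *Srf* were the most opposed pair. Their r was −0.88 and rho −0.77 (permutation p = 3e-05 and 0.00129, adjusted p = 0.000675 and 0.0153). It was −0.78 without Wistar N replicates 1 and 3 and −0.57 with label set means removed. With label set means also removed, *Arc* and *Srf* had a higher r (0.84) and *Npas4* and *Sik1* a lower one (−0.72) than these pairs. By contrast, *Npas4* and *Arc*, the genes highest in WAR S replicates 3 and 4, had r of 0.62 and rho of 0.58 (permutation p = 0.0142 and 0.0264, adjusted p = 0.0427 and 0.0659). This r fell to 0.22 without those 2 arrays and to −0.55 with label set means removed. It was 0.48 within label set 1, which holds neither of them, and −0.72 within label set 2. The size and sign of the relation thus depended on the arrays taken.

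**Figure D4:**
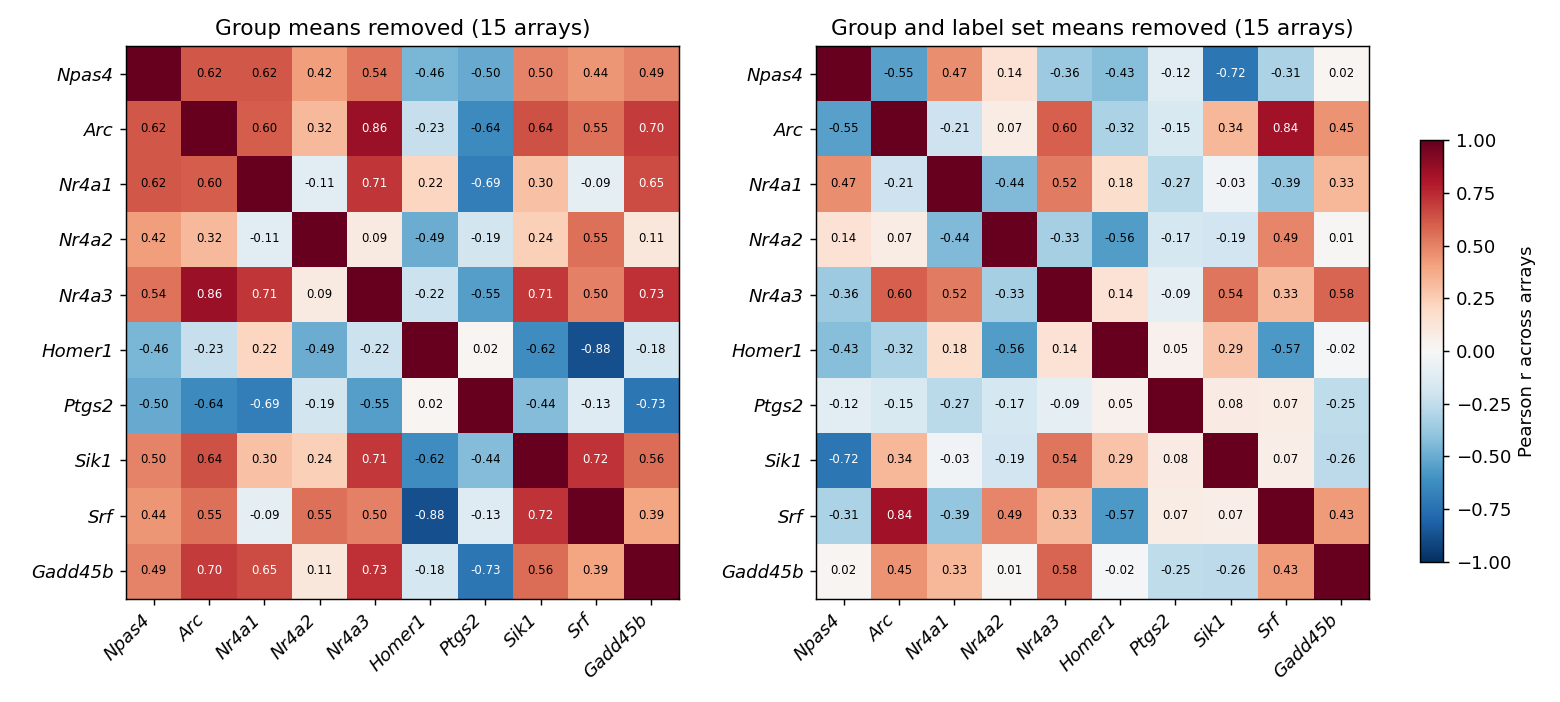
Pearson r for each pair of the 10 genes across 15 arrays, on a colour scale from −1 to 1, with group means removed (left) and with group and label set means removed (right). *Npas4* and *Arc* go from 0.62 to −0.55, whereas *Arc* and *Nr4a3* stay positive (0.86 and 0.60) and *Homer1* and *Srf* negative (−0.88 and −0.57).

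The mean of the 10 standardized profiles was set against 7248 other genes brighter than the median gene. The 6 with the highest r over the 15 arrays were *Zbtb16* (0.93), *Fos* (0.93), *Lrp4* (0.89), *Junb* (0.88), *S1pr1* (0.85) and *Foxj1* (0.84). *Fos* and *Junb* are immediate-early genes, *S1pr1* encodes a sphingosine 1-phosphate receptor and *Foxj1* a factor of ciliated cells. With label set means removed *Zbtb16* kept 0.79 and *Fos* 0.71, while *Junb* went to −0.36.

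Of 46 other activity-induced genes listed, 41 were measured. In stimulated arrays 3 were called higher in WAR than in Wistar and 0 lower (0.214% and 0.200% of all genes), with 31 of 41 estimates positive and a median log2 fold change of 0.14. They were *Egr3*, a zinc-finger factor (1.05 ± 0.18, adjusted p = 0.0212 in limma), *Rgs2*, a G-protein regulator (0.85 ± 0.15, adjusted p = 0.0212), and *Klf10*, a TGF-beta-induced factor (0.76 ± 0.15, adjusted p = 0.0466). *Fos* had an estimate of 0.77 ± 0.41 that did not pass (adjusted p = 0.861). Without sound 1 of the 41 was higher in WAR, *Inhba*, an activin subunit (0.51 ± 0.13, adjusted p = 0.0149), and 5 were lower, where 11.6% of all genes were higher and 9.38% lower. The 5 were *Jun* (−0.61 ± 0.14, adjusted p = 0.00705), the ERK phosphatase gene *Dusp6* (−0.65 ± 0.17, adjusted p = 0.0135), *Dusp4*, *Ier5* and *Vgf*. None of the 41 passed the limma test of the difference between stimulated and naive arrays (10 at an unadjusted p of 0.05, against 15.0% of all genes).

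The position of WAR S replicates 3 and 4 was shared by some of this list. Both lay above the other 5 stimulated arrays for 15 of 41 genes, against 7.0% of all genes, and below them for 2, against 10.9%. Named after their values were seen, *Fos* was higher by 1.50 than in the other WAR S arrays, *Sgk1* by 1.24, *Egr1* by 1.12 and *Junb* by 1.06. At the other end, the means of *Nrn1*, *Vgf* and *Bdnf* differed by −0.73, −0.70 and −0.37. *Rgs2*, which rose in WAR S, was at −0.38.

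**Figure D5:**
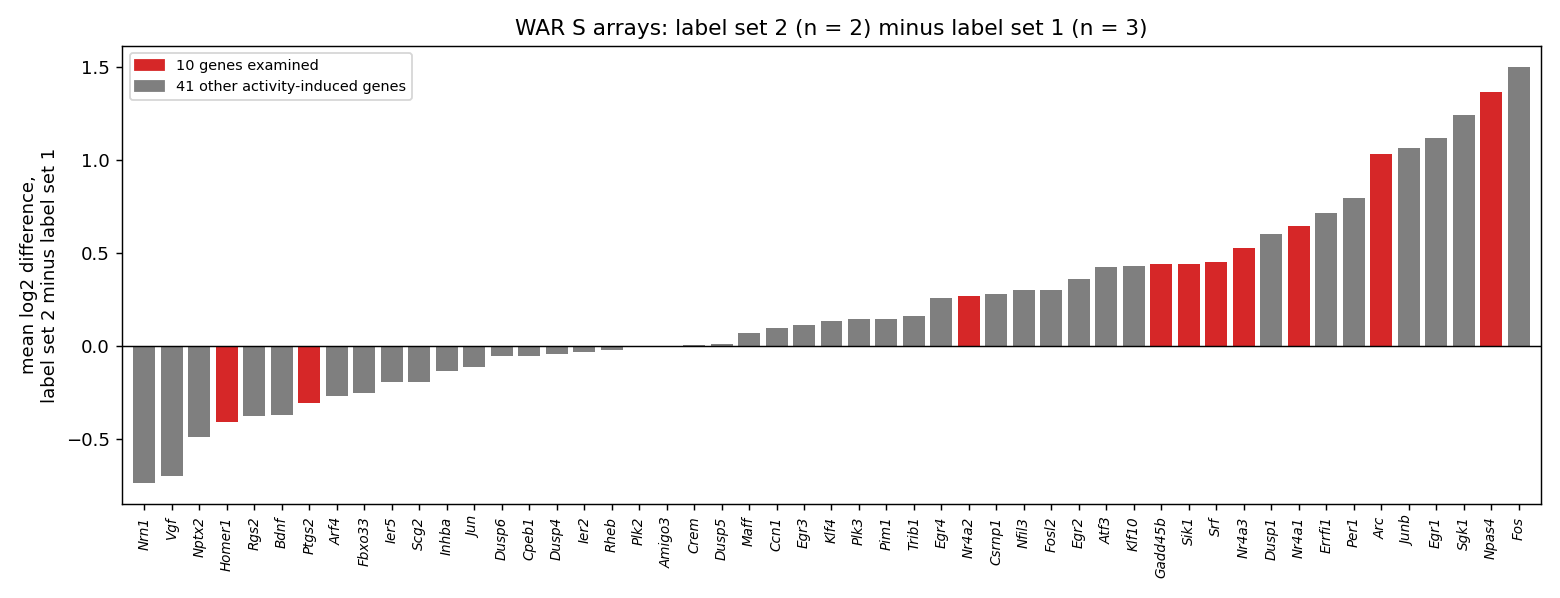
Mean log2 difference of WAR S label set 2 (n = 2) minus WAR S label set 1 (n = 3), 1 bar per gene, for the 10 genes (red) and 41 other activity-induced genes (grey), in order of size. *Fos* at 1.50 and *Npas4* at 1.36 are at one end and *Nrn1* at −0.73 is at the other.

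Relatives and partners of the 10 genes, such as *Gadd45a*, *Homer2* and *Sik2*, gave no call after sound (0 of 22 measured passed in limma, median log2 fold change −0.03). At an unadjusted p of 0.05 in limma 2 of the 22 passed, against 6.85% of all genes. Without sound 1 was higher in WAR, the prostaglandin synthase gene *Ptges* (0.34 ± 0.11, adjusted p = 0.0377 in limma), and 1 was lower, *Gadd45a* (−1.32 ± 0.33, adjusted p = 0.0123), where 11.6% of all genes were higher and 9.38% lower. Of 27 measured genes upstream of activity-induced transcription (receptors, kinases and the factors they act on), 0 passed after sound and 0 had an unadjusted p of at most 0.05, with a median log2 fold change of −0.01. Without sound 6 were higher in WAR, among them *Nfatc3* (0.58, adjusted p = 0.00438), *Creb1* (0.39, adjusted p = 0.0149), *Atf1* (0.40, adjusted p = 0.0154) and *Elk4* (0.47, adjusted p = 0.0154). In the same comparison 3 were lower, among them the NMDA receptor gene *Grin1* (−0.48, adjusted p = 0.0368) and *Elk3* (−0.26, adjusted p = 0.0469). The same shares of all genes apply to these 27. In the test of the difference between stimulated and naive arrays none of the 22 and none of the 27 passed in limma. At an unadjusted p of 0.05 in limma 2 and 8 passed, against 15.0% of all genes.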

How the data were processed

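RNA of the inferior colliculus was hybridised to Affymetrix Rat Gene 1.0 ST arrays. The deposited series table holds log2 values from RMA, a method that corrects background, equalises the distributions of arrays and summarises probes, run by the authors (version not given in the sources used here). Of 29214 probe sets, 15310 had 1 gene symbol, 323 several and 13581 none in the platform annotation, and 15279 of the 1-symbol probe sets matched a gene ID of GRCr8. The brightest probe set per gene over all arrays was kept (527 genes had more than 1). No further normalization was applied. Signals that RMA compresses near background understate fold changes of dim genes, and precision is limited by how few arrays there are.

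Groups came from the label of each array. limma 3.58.1 (R 4.3.3) fitted 4 group means to all 15 arrays, with 1 spread per gene for all groups. A gene was called at a p of 0.05 after Benjamini-Hochberg adjustment, computed on all 14506 genes. The script was tested on simulated data. Permutation tests used scipy 1.17.1, exact for single genes and with 1e+05 resamples for correlations, where the smallest possible p is 1e-05. Standard errors are those of the fit. The 10 genes and all lists were chosen with earlier results of these data known. Genes outside the 10 were named where called, up to 6 per list by the stimulated adjusted p, or where most alike, except those said to be named after their values were seen and those that complete a count. The significance analysis of microarrays named in the study's methods was not run. The alternatives were other probe-set rules, normalization, filters, variance models, label sets, blocks and arrays left out.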

Additional observations from a re-analysis of the deposited data

Results flagged for a closer look

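None of the 10 genes held an array far from the rest of its group by Dixon's test at its 95% critical value, in 30 groups tested. The test takes 1 array at a time, so arrays that stand high together hide each other. It therefore could not flag WAR S replicates 3 and 4, which were high together for *Npas4* and *Arc*. Over the 53 named genes, lists and markers included, 159 groups were tested and 16 arrays stood far from their group, where chance gives about 1 in 20. All values here are log2 levels.

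Wistar N replicate 1 was the far array for *Gadd45a* (6.80, nearest other array 8.65), *Atf1* (8.74, nearest 8.28), *Rgs5* (11.00, nearest 9.49) and *Acta2* (9.15, nearest 8.76). The naive difference of *Gadd45a* between strains, −1.32, is therefore set beside an array at 6.80 in a group otherwise at 8.65 or higher.

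WAR S replicate 3 was the far array for *Cx3cr1* (8.36, nearest 9.56), *Itm2a* (10.4, nearest 9.94) and *Acta2* (9.18, where the other 4 arrays hold the same value, 9.10). WAR S replicate 4 was the far array for *Jun* (8.61, nearest 8.79), *Atf1* (8.91, nearest 9.11) and *Folr1* (7.38, nearest 6.98). The remaining WAR S cases were *Creb1* in replicate 2 (9.15, nearest 8.93) and *Aqp1* in replicate 1 (6.86, nearest 7.07, a value that replicates 3, 4 and 5 share).

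Among naive arrays, *Fos* stood high in WAR N replicate 4 (8.20, nearest 7.62), as did *Csf1r* (9.53, nearest 8.99). *Alas2* was low in WAR N replicate 2 (6.27, nearest 6.85) and *Hbb* was high in Wistar N replicate 2 (11.1, nearest 10.5). What set these arrays apart was not tested.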

How the results depend on the processing

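Of 640 values of the 10 genes under alternative settings, 603 kept their direction and side of the threshold, 15 passed it newly and 22 turned direction. None of the 10 was called after sound with any array left out (0 to 0), and 0 to 2 were called without sound and 0 to 2 in the test of the difference. Within label set 1 the calls after sound were 1, where 3.0% of all genes were called. With array weights they were 2 after sound, 1 without sound and 2 in the difference, where 9.88%, 32.2% and 23.1% of all genes were called. Within label set 2 they were 3 without sound, where 30.1% of all genes were called. Calls of the 10 genes within label set 1 that involve naive arrays are not given. They rest on 1 Wistar N array, replicate 1, assumed to vary like the other groups, and test no more than that array. The directions that turned were within label set 1 those of *Arc* after sound (−0.0074, also without the label set 2 arrays of WAR S), of *Nr4a3* (−0.024), *Homer1* (0.54), *Srf* (−0.47) and *Gadd45b* (−0.032) without sound and of *Homer1* in the difference (−0.25). *Sik1* without sound turned to 0.16 within label set 2, *Nr4a3* without sound to −0.061 with cyclic loess, and *Srf* in the difference to −0.19 with array weights. Without the label set 2 arrays of WAR S the differences of *Srf* and *Nr4a3* turned to −0.11 and −0.013. With each array left out in turn, the range was −0.046 to 0.080 for *Nr4a3* and −0.040 to 0.18 for *Gadd45b* without sound, −0.20 to 0.12 for *Nr4a2* after sound and −0.11 to 0.20 for *Srf* in the difference, all log2.

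The genes called after sound, 60 in the fit over all arrays, numbered 100 with label set as a block, 435 within label set 1, 16 with the replicate block, 274 with the compared groups alone, 1433 with array weights, 39 by a fold of at least 2 with an unadjusted p, 24 without the label set 2 arrays of WAR S, and 7 to 50 with each array left out. Those without sound, 3037, became 5355 over all probe sets, 879, 4667 and 256 under the compared groups, array weights and the fold rule, and 1987 to 5968 with each array left out, the highest without Wistar N replicate 1 and the lowest without Wistar N replicate 3. Those of the difference, 15, became 24 with mean probe sets, 42 with cyclic loess, 6 with label set as a block, 1506 within label set 1, 0 with the replicate block, 9 with trend and robust variance, 3353 with array weights, 4 without the label set 2 arrays of WAR S, and 0 to 2956 with each array left out. Same-numbered replicates did not deviate together (r from −0.31 to 0.06), so the numbers were not taken as pairs, and the replicate block called 0 of the 10 genes in each comparison. The median r among the 10 genes was 0.014 with label set means removed and 0.067 to 0.41 with each array left out. The causes of these shifts were not tested.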

Other observations

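Marker genes of the other cells of the tissue gave these counts, where over all genes 0.214% were called higher and 0.200% lower in WAR after sound, and 11.6% and 9.38% without. At an unadjusted p of 0.05 in limma the shares of all genes were 6.85% after sound and 34.5% without. Of 14 astrocyte markers, 0 passed after sound in limma (4 at an unadjusted p of 0.05), with 0 of 14 estimates positive, and 6 were lower in WAR without sound. Of 19 endothelial markers 5 were higher in WAR after sound and 10 without, and all 19 estimates were positive in both. Of 15 microglia and macrophage markers 1 was higher in WAR after sound, *P2ry12* (0.89 ± 0.09), and 5 without. Neuron markers gave 0 of 18 after sound (3 at an unadjusted p of 0.05) and 5 lower in WAR without sound. Of 9 oligodendrocyte markers 0 passed after sound (0 at an unadjusted p of 0.05), and 1 was higher and 1 lower without. Of 10 pericyte and smooth muscle markers 0 passed after sound (4 at an unadjusted p of 0.05) and 1 was higher in WAR without. Of 6 red blood cell markers 1 was lower in WAR in each comparison, *Hbb* (−1.17 ± 0.20 after sound and −0.67 ± 0.17 without). Of 9 ependymal and choroid plexus markers 0 passed in either comparison (2 and 1 at an unadjusted p of 0.05).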
